A study of Mus musculus with 12 samples.

Results

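The interleukin 1 family is described here through 9 genes: the ligands Il1a, Il1b, Il1f6, Il33 and Il18, the antagonist Il1rn, and the receptor chains Il1r1, Il1rap and Il1rl1. The genes were selected by name from the family, with earlier results of these data known, and it was on their levels in the DNTCF4 and Vector libraries that the family had stood out. That comparison is therefore given as a description, with no test. The 9 genes are 9 of the 55492 features in the deposited count table. Of the 9, 8 are among the 15052 genes with enough counts for a test. Il1b is the 1 gene that is not. Il1f6 passed the filter on low counts through the groups that hold DNTCF4, since it had no count in the Vector group. So did Il1a, whose Vector libraries had 12, 12 and 4 counts, the last too few for the filter.

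RNA was measured in CCN6KOT, a primary mouse line from a breast tumour that the labels class as spindle metaplastic breast cancer. By its name the line comes from a CCN6 knockout tumour, a background that all 4 groups share, as they share the lentivirus and the treatment with puromycin. The Vector group received the control lentivirus. Its sample titles read PPGS-Vector, and PPGS is not defined. The DNTCF4 group received DNTCF4, described in the series as a dominant negative construct against beta-catenin signalling. The titles of that group read DNTCF4-Vector, where the titles of the next groups name EZH2 or SET in the place of Vector. The DNTCF4_EZH2 group received DNTCF4 with EZH2, the histone H3 lysine 27 methyltransferase. The DNTCF4_SET group received DNTCF4 with a construct named SET, which the labels do not define further. Ezh2 RNA was higher in both of these groups than in DNTCF4, with values given below. Each group has 3 libraries. The labels do not say whether these came from separate cultures, or whether the cells are a clone or a pool, so p-values speak of the variation among the libraries at hand, and that may be technical in origin. No promoter is named for any construct.

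Interleukin 1 alpha and interleukin 1 beta are cytokines that bind the same receptor, the Il1r1 chain, which then recruits the accessory chain Il1rap. The antagonist encoded by Il1rn occupies Il1r1 without recruiting Il1rap. Il1rap also serves Il1rl1, the receptor of interleukin 33, and Il1rl2, the receptor of the group of ligands to which Il1f6 and Il1f9 belong. Interleukin 18 uses its own pair, Il18r1 and Il18rap. The receptors signal through MyD88, IRAK kinases and TRAF6 to the IKK complex and NF-kappaB, and many of the cytokine and chemokine genes that follow are themselves under NF-kappaB control. Interleukin 1 alpha and interleukin 33 can act as alarmins released from damaged epithelial and stromal cells, whereas interleukin 1 beta and interleukin 18 are usually cut by caspase-1 first.

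The genes lie in a few clusters on the GRCm38 build, in the GENCODE annotation. Il1a (ENSMUSG00000027399, chromosome 2, 129299610 to 129309972, minus strand) and Il1b (ENSMUSG00000027398, chromosome 2, 129364570 to 129371139, minus strand) are neighbours with 54597 bases between them. Il1f6 (ENSMUSG00000026984, 24215418 to 24225702) and Il1rn (ENSMUSG00000026981, 24336853 to 24351494) lie on the plus strand in the second ligand cluster of chromosome 2, in the order Il1f8, Il1f9, Il1f6, Il1f5, Il1f10 and Il1rn. Il1r1 (ENSMUSG00000026072, 40225080 to 40317257) and Il1rl1 (ENSMUSG00000026069, 40429570 to 40465415) lie on the plus strand of chromosome 1 in the order Il1r2, Il1r1, Il1rl2, Il1rl1, Il18r1 and Il18rap. Il1rl1 ends 136 bases before Il18r1. Il1rap (ENSMUSG00000022514) is on chromosome 16 from 26581704 to 26730117, Il33 (ENSMUSG00000024810) on chromosome 19 from 29925114 to 29960718, and Il18 (ENSMUSG00000039217) on chromosome 9 from 50554827 to 50581840, all on the plus strand.

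The promoters of Il1a, Il18 and Il1rl1 are shown because these genes, with Il1f6, had the largest differences between DNTCF4 and Vector in either direction. That of Il1b is set beside Il1a as its near-silent neighbour and was added after the values were seen. Each run holds 250 bases before and 50 after a start site in RefSeq on GRCm38.p6, read 5′ to 3′ along the gene. No entry for Il1f6 was found in the table used. Capitals mark matches on either strand to any of 4 short motifs. The motif of the initiation box near many start sites was searched as TATAAA. The motif of the AP-1 factors was searched as TGANTCA. A loose motif of NF-kappaB, the kappaB motif, was searched as GGGNNNNNCC. The core motif of TCF/LEF factors was searched as CTTTGA. The motifs do not overlap one another in the windows shown.
Il1a promoter, chr2:129309923-129310222, minus strand: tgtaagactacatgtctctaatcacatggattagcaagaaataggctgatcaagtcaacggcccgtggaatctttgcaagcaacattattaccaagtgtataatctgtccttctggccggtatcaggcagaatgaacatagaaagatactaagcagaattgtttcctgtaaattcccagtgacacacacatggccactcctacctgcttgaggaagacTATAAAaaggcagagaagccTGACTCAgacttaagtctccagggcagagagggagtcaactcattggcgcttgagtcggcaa
Il1b promoter, chr2:129371090-129371389, minus strand: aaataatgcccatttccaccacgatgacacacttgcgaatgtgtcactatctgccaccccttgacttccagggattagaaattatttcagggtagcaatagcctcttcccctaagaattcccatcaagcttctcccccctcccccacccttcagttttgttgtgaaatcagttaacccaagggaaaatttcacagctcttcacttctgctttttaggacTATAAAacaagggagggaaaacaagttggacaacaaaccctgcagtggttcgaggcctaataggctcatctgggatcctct
Il18 promoter, chr9:50554450-50554749, plus strand: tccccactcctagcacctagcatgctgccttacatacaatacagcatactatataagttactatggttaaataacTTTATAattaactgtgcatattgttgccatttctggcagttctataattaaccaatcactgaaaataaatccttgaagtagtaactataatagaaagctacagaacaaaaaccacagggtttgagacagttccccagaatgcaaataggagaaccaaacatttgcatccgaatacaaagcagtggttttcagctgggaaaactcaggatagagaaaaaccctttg
Il1rl1 promoter 1, chr1:40429320-40429619, plus strand: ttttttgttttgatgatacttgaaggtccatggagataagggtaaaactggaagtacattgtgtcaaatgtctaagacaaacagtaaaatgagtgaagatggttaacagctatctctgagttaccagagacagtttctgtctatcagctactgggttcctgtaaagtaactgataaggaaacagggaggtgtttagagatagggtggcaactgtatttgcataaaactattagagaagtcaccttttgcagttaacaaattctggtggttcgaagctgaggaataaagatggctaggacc
Il1rl1 promoter 2, chr1:40439379-40439678, plus strand: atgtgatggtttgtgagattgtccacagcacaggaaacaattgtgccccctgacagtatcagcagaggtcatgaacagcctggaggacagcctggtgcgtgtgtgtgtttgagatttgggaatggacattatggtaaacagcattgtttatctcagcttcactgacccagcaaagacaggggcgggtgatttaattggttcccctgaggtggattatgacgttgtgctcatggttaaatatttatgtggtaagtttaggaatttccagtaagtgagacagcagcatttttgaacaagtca
The Il1a window holds TATAAA with its first base at -32 and TGACTCA with its first base at -12 from the start site. The Il1b window holds TATAAA at -31 and none of the other motifs. In Il18 the TATAAA match is on the opposite strand at -175, and neither Il1rl1 window holds a match.

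RefSeq promoters were found for 8 of the 9 genes, 13 windows in all. The AP-1 motif was in the windows of 2 genes, Il1a and Il1rn, and is in 7.81% of the 32851 mouse promoter windows of this length. TATAAA was in the windows of 5 genes, against 13.6% of all windows. The kappaB motif was in the windows of 3 genes, Il1rn, Il1r1 and Il1rap, against 50.8% of all windows. CTTTGA was in none of the 13 windows and is in 16% of all windows. A match is a description of letters, and a window without one says nothing of sites elsewhere.

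Facts of the libraries bear on these values. Library totals ran from 23597545 to 33999982 counts, and levels are given as CPM, counts scaled to a common library size with TMM. Taking 3 counts as the limit that a count of 0 allows, a gene without reads in a library could still reach 0.0879 to 0.126 CPM. Tcf7l2, the gene of TCF4, was at 11.0 ± 2.47 CPM in Vector and 35.2 to 45.4 CPM on average in the groups with DNTCF4. Ezh2 was at 57.8, 65.4, 450 and 545 CPM in Vector, DNTCF4, DNTCF4_EZH2 and DNTCF4_SET. A comparison of EZH2 with SET is therefore not one of Ezh2 RNA added against not added. Sensory receptor genes had counts at 550 to 774 genes per Vector library against 69 to 81 in DNTCF4. The range was 241 to 311 genes in DNTCF4_EZH2 and 325 to 472 in DNTCF4_SET. Such counts can be a sign of scattered reads, which was not tested. The labelled breast tumour origin was checked against markers. The luminal list summed to 340 to 386 CPM per library, most of it from Krt18, with group means of 229 to 255 CPM, and Krt8. Krt19, Esr1 and Cldn3 had group means of 3.12 CPM or more. Epcam, Cdh1, Elf5 and Cldn7 of the same list had group means of at most 1.01 CPM. The mesenchymal list summed to 12195 to 13247 CPM in Vector and 5414 to 7117 CPM in the other groups, with Twist1 at 0. Most of the sum was Fn1, at 8716 CPM in Vector and 3858 CPM in DNTCF4. Of its 10 tested genes, 6 were called lower and 3 higher in DNTCF4 against Vector, 90% against 57.5% of all genes. Prrx1 went from 19.8 to 87.4 CPM. The squamous and basal list summed to 11.2 to 12.6 CPM in Vector, led by Trp63, and 4.80 to 8.08 CPM in the other groups, led by Krt17, and its keratin Krt5 had at most 2 counts in a library.

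Il1a encodes interleukin 1 alpha, an agonist of Il1r1. It had 12, 12 and 4 counts in the 3 Vector libraries and 2112, 2230 and 1940 counts in the DNTCF4 libraries. In CPM these are 0.452, 0.443 and 0.168 against 80.5, 71.0 and 71.0. The groups lie far apart, with a fitted log2 difference of 7.66 (SE 0.13), or 203-fold. With EZH2 added, Il1a was at 35.1, 39.5 and 35.8 CPM, and with SET at 48, 46.7 and 49.2 CPM. Every library of these groups lay below the lowest DNTCF4 library and far above the highest Vector library.

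Il1a fell by 1.01 on the log2 scale (SE 0.066) in DNTCF4_EZH2 against DNTCF4, or 2.02-fold, with an adjusted p of 3.18e-08 in edgeR's quasi-likelihood test. In DNTCF4_SET against DNTCF4 it fell by 0.63 (SE 0.066), or 1.54-fold, with an adjusted p of 6.58e-06. The fall was larger with EZH2 than with SET: tested directly, DNTCF4_EZH2 was lower than DNTCF4_SET by 1.31-fold, a log2 change of -0.38 (SE 0.067, adjusted p 0.00356). On the log2 CPM scale the DNTCF4_EZH2 mean covered 13.4% of the distance from DNTCF4 to Vector and the DNTCF4_SET mean 8.30%. The DNTCF4 libraries of these tests are those in which the family was noticed. Gm14023, an antisense gene whose exons overlap Il1a, never exceeded 10 counts. The sources used here do not say whether counting used strand.

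**Figure D1:**
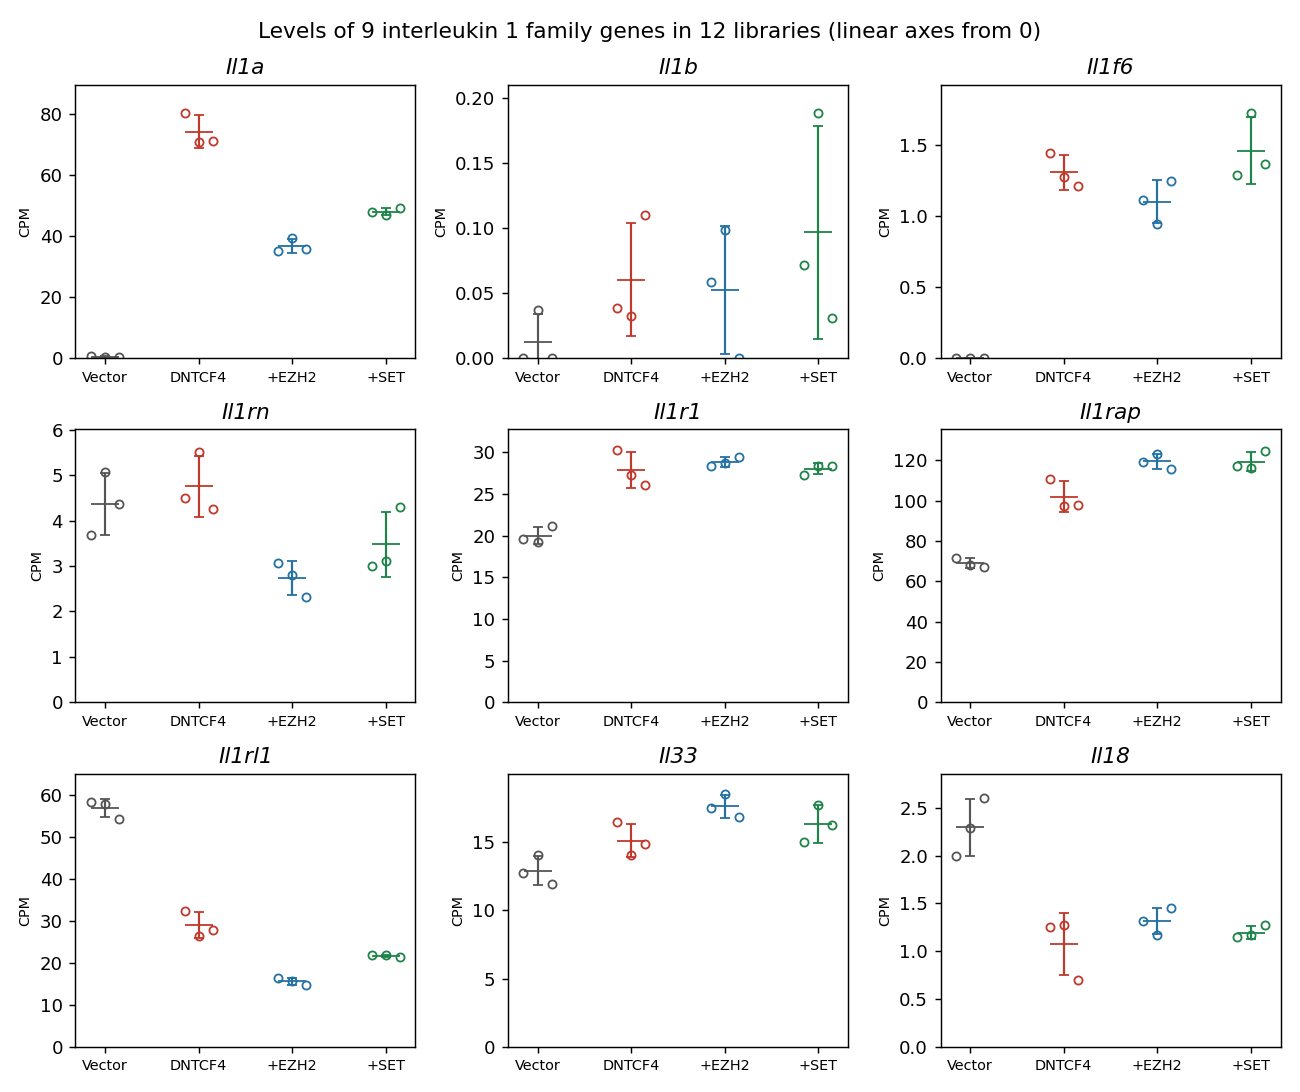
Levels of the 9 genes in CPM (y axis, linear from 0, its range set per gene) in the 12 libraries. Open circles are single libraries, horizontal bars are group means and whiskers are 1 SD (n = 3), and +EZH2 and +SET stand for DNTCF4_EZH2 and DNTCF4_SET. Il1a and Il1f6 are at or near 0 in Vector, Il1rl1 steps down from 56.8 CPM in Vector to 15.6 CPM with EZH2, and Il1b stays under 0.2 CPM throughout.

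Il1b, the other agonist of Il1r1, was close to undetected. It had 0, 1 and 0 counts in Vector, 1, 1 and 3 in DNTCF4, 2, 3 and 0 in DNTCF4_EZH2, and 2, 5 and 1 in DNTCF4_SET. The ratio of DNTCF4 to Vector was 4.56 with a 95% interval of 0.51 to 216, which covers counting error alone. The libraries overlap, and no difference between groups was detectable at this depth. The neighbouring Il1a had 6282 counts over the same DNTCF4 libraries in which Il1b had 5. Il1bos, an antisense gene whose exons overlap Il1b, had 0 counts in each Vector library and 4 to 5 in each DNTCF4 library, and whether reads were kept apart by strand is not known.

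Il1f6 encodes interleukin 36 alpha, an agonist of Il1rl2. It had 0 counts in each Vector library and 38, 40 and 33 counts in DNTCF4. The counts were 38, 29 and 37 in DNTCF4_EZH2 and 36, 46 and 45 in DNTCF4_SET. No Vector library overlaps the others. With a floor of 3 counts for the whole Vector group, DNTCF4 was at least 33.7-fold higher than Vector, DNTCF4_EZH2 at least 28.4-fold and DNTCF4_SET at least 37.5-fold.

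The level stayed low, at 1.31 ± 0.124 CPM in DNTCF4 (SD, n = 3), 1.1 ± 0.15 CPM in DNTCF4_EZH2 and 1.46 ± 0.236 CPM in DNTCF4_SET. Unlike Il1a, Il1f6 did not pass the test in DNTCF4_EZH2 against DNTCF4, with a log2 change of -0.25 and a 95% interval from -0.74 to 0.25 (adjusted p 0.444). In DNTCF4_SET against DNTCF4 the value was 0.15, from -0.33 to 0.64 (adjusted p 0.642). DNTCF4_EZH2 against DNTCF4_SET gave -0.40, from -0.89 to 0.09 (adjusted p 0.334). The first interval does not reach the fall of Il1a in the same comparison.

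Il33, the ligand of Il1rl1, varied little. It was at 12.7, 14.0 and 11.9 CPM in Vector and 16.4, 14.0 and 14.9 CPM in DNTCF4, and the groups overlap. It was at 17.5, 18.5 and 16.8 CPM in DNTCF4_EZH2 and 15, 17.7 and 16.2 CPM in DNTCF4_SET. The log2 difference of DNTCF4 from Vector was 0.22. DNTCF4_EZH2 against DNTCF4 gave 0.22 with an adjusted p of 0.053, just above the threshold of 0.05 and so not called, and it passed under 3 of 12 alternative settings, among them the fit without DNTCF4 replicate 1, where the log2 change was 0.29 (adjusted p 0.0106). Over those settings the adjusted p ran from 0.0106 to 0.177. DNTCF4_SET against DNTCF4 gave 0.11 (adjusted p 0.342).

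Il18 was the 1 ligand of the set with a lower level in DNTCF4 than in Vector. It was at 2.00, 2.29 and 2.60 CPM in Vector and 1.26, 1.27 and 0.696 CPM in DNTCF4, without overlap, a log2 difference of -1.08. The 6 libraries with EZH2 or SET lay between 1.14 and 1.45 CPM. No comparison among the 3 groups with DNTCF4 passed the test for Il18, with adjusted p from 0.239 to 0.945 over the alternatives. Tex12 and Bco2 overlap the Il18 gene without sharing exons with it.

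Il1rn, the antagonist of Il1r1, had similar levels in Vector and DNTCF4, where Il1a was far apart. It was at 3.69, 5.06 and 4.36 CPM in Vector and 4.5, 5.51 and 4.25 CPM in DNTCF4, and the groups overlap. The log2 difference was 0.12, and it was -0.01 without DNTCF4 replicate 2. With EZH2, Il1rn was at 3.08, 2.81 and 2.32 CPM, below every library of Vector and DNTCF4. Il1rn fell by 0.80 on the log2 scale in DNTCF4_EZH2 against DNTCF4 (SE 0.17), with an adjusted p of 0.00265. With SET it was at 3.00, 3.12 and 4.31 CPM, a log2 change of -0.44 from DNTCF4 (adjusted p 0.0591). That change passed under 3 of 13 alternatives, with no filter on low counts, without DNTCF4 replicate 1 and without DNTCF4_SET replicate 3, where it was -0.64 (adjusted p 0.0156); over the 13 the adjusted p ran from 0.011 to 0.199. DNTCF4_EZH2 against DNTCF4_SET gave -0.35 (adjusted p 0.289). The counts sum over transcripts and do not separate the secreted from the intracellular forms of the antagonist.

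Per kilobase of exon, the agonist and the antagonist of Il1r1 changed places. The ratio of Il1a to Il1rn was 0.232 ± 0.118 in Vector (SD, n = 3) and 44.4 ± 7.34 in DNTCF4. It was 38.2 ± 5.67 in DNTCF4_EZH2 and 39.6 ± 6.71 in DNTCF4_SET. The 3 groups with DNTCF4 overlap one another, and none of them overlaps Vector. These are ratios of RNA, and protein was not measured.

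**Figure D2:**
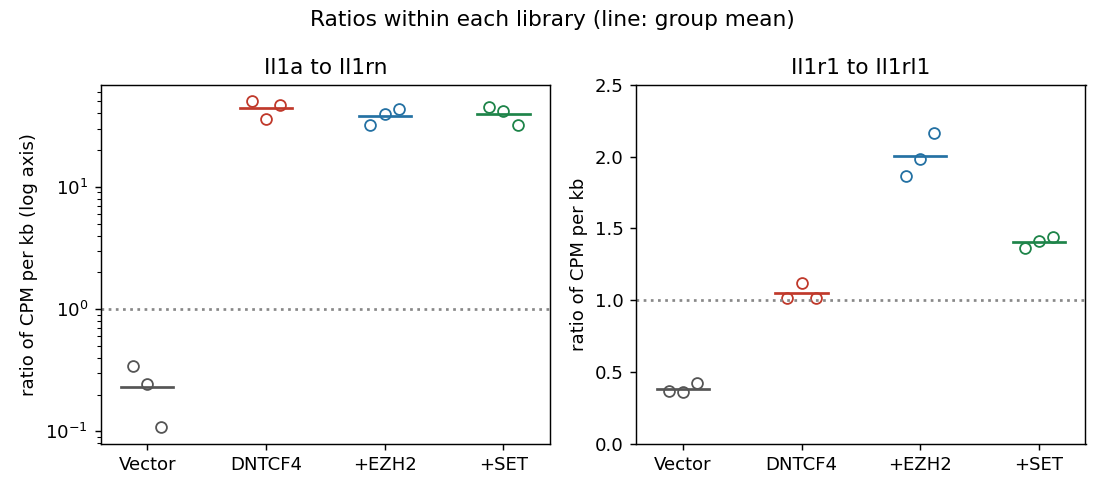
Ratios of CPM per kilobase of exon within each library, Il1a to Il1rn on the left (log axis) and Il1r1 to Il1rl1 on the right (linear axis). Circles are libraries, lines are group means (n = 3), the dotted line marks a ratio of 1, and +EZH2 and +SET stand for DNTCF4_EZH2 and DNTCF4_SET. The left ratio jumps from 0.232 in Vector to between 38.2 and 44.4, and the right ratio is lowest in Vector at 0.382 and highest with EZH2 at 2.01.

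Il1r1, the signalling receptor of interleukin 1, was at 19.6, 19.3 and 21.1 CPM in Vector and 30.3, 27.3 and 26.1 CPM in DNTCF4. The groups do not overlap, and the log2 difference was 0.48, or 1.40-fold. It was at 28.3 to 29.5 CPM in DNTCF4_EZH2 and 27.3 to 28.4 CPM in DNTCF4_SET. No comparison among the 3 groups with DNTCF4 passed the test. The 95% interval of DNTCF4_EZH2 against DNTCF4 ran from -0.09 to 0.18 on the log2 scale, and that of DNTCF4_SET against DNTCF4 from -0.13 to 0.14.

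Il1rap, the shared accessory chain, differed stepwise. Its Vector libraries were at 71.7, 68.3 and 67.2 CPM and its DNTCF4 libraries at 111, 97.4 and 97.9 CPM. With EZH2 it was at 119, 123 and 116 CPM, and with SET at 117, 116 and 125 CPM. Every library with EZH2 or SET was above every DNTCF4 library. The log2 difference of DNTCF4 from Vector was 0.56. Il1rap then rose by a further 0.23 (SE 0.051) with EZH2, adjusted p 0.00402, and by 0.23 (SE 0.051) with SET, adjusted p 0.00432. The EZH2 and SET groups differed by 0.00 (95% interval -0.12 to 0.12, adjusted p 0.995). The overlapping gene Gm20319 had at most 7 counts in a library.

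Il1rl1, the receptor of interleukin 33, was at 58.3, 57.8 and 54.3 CPM in Vector and 32.4, 26.4 and 27.9 CPM in DNTCF4, a log2 difference of -0.98, or 1.97-fold lower. Adding EZH2 did not bring it back toward Vector. It was at 16.4, 15.7 and 14.7 CPM in DNTCF4_EZH2 and 21.7, 21.7 and 21.4 CPM in DNTCF4_SET. The 4 groups do not overlap at any step.

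Il1rl1 fell by 0.88 (SE 0.071) in DNTCF4_EZH2 against DNTCF4, or 1.85-fold, with an adjusted p of 2.85e-07. It fell by 0.42 (SE 0.069) in DNTCF4_SET against DNTCF4, or 1.34-fold, with an adjusted p of 0.000434. DNTCF4_EZH2 was below DNTCF4_SET with a log2 change of -0.47 (SE 0.073, adjusted p 0.00163). Il1a and Il1rl1 were thus the pair of genes whose fall was larger with EZH2 than with SET, and they differ in that Il1a lay below DNTCF4 toward Vector and Il1rl1 lay below DNTCF4 away from it. The counts do not separate the membrane form of Il1rl1 from its soluble form, and the RNA does not show which of its start sites was used. Mast cells also carry Il1rl1, and of the 7 mast cell markers 5 (Cpa3, Cma1, Mcpt4, Tpsb2 and Fcer1a) had no count in any library, with a summed level of the list of at most 0.554 CPM.

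The ratio of Il1r1 to Il1rl1 per kilobase was 0.382 ± 0.0341 in Vector and 1.05 ± 0.061 in DNTCF4. With EZH2 it was 2.01 ± 0.151, and with SET 1.41 ± 0.041. The 4 groups do not overlap. In Vector the order of levels in CPM per kilobase of exon was Il1rl1 (8.24), Il1rap (6.08), Il33 (4.47), Il1r1 (3.14), Il18 (2.23), Il1rn (0.79) and Il1a (0.179), with Il1b and Il1f6 at or near 0, and neighbours in this order did not overlap except the last pair. In DNTCF4 the order was Il1a (37.6), Il1rap (8.98), Il33 (5.23), Il1r1 (4.39), Il1rl1 (4.19), Il1f6 (1.48), Il18 (1.04), Il1rn (0.858) and Il1b (0.031). There Il1r1 overlapped Il1rl1 and Il18 overlapped Il1rn. Il1a, seventh of the 9 in Vector, was the first in each of the other groups, at 18.6 CPM per kilobase in DNTCF4_EZH2 and 24.3 in DNTCF4_SET.

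Counted together, 6 of the 9 genes had groups that do not overlap between DNTCF4 and Vector, 4 higher and 2 lower in DNTCF4. Over all 15052 genes 59.3% had such groups, and 57.5% were called in that comparison (29.5% higher and 28% lower), so nothing is read from the count. In DNTCF4_EZH2 against DNTCF4, 4 of the 8 tested genes were called, Il1rap higher and Il1a, Il1rn and Il1rl1 lower, where 25.5% of all genes were called (13% higher and 12.5% lower). In DNTCF4_SET against DNTCF4, 3 of 8 were called, Il1rap higher and Il1a and Il1rl1 lower, where 26% of all genes were (12.7% higher and 13.3% lower). Between DNTCF4_EZH2 and DNTCF4_SET, 2 of 8 were called, both lower with EZH2, where 5.16% of all genes were called (3% higher and 2.17% lower). The median log2 change of the 8 was -0.10, 0.06 and -0.18 in these 3 comparisons, and that of all genes 0.00 in each.

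**Figure D3:**
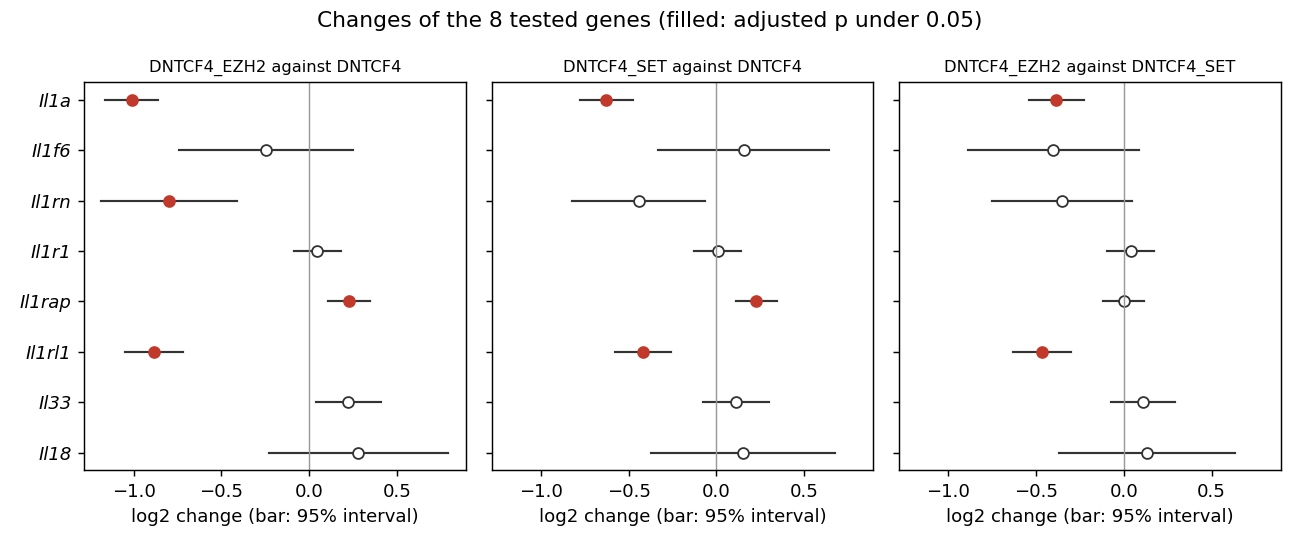
Log2 changes of the 8 tested genes in the 3 comparisons among groups with DNTCF4 (x axis). Points are fitted changes, bars their 95% intervals, and filled points have an adjusted p under 0.05 in edgeR's test. Il1a and Il1rl1 lie left of 0 in all 3 comparisons, and Il1rap lies right of 0 against DNTCF4 and at 0.00 between EZH2 and SET.

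The other genes of the family were described by position in the same clusters. Il1f9 encodes interleukin 36 gamma and is the coding neighbour before Il1f6. It went from 0.432 ± 0.136 CPM in Vector to 4.06 ± 0.196 CPM in DNTCF4 (log2 change 3.24, SE 0.19). The family was noticed in that comparison, so no p-value is given for its genes here. Il1f9 passed the filter on low counts through the groups that hold DNTCF4. It was the 1 of the 4 other ligands in the table with enough counts for a test. It was at 3.64 ± 0.323 CPM with EZH2 and 4.67 ± 0.416 CPM with SET, neither of which passed against DNTCF4. Il1f5, between Il1f6 and Il1rn, had 1 count over the Vector group and 9 to 12 counts over each other group, Il1f8 had none in any library and Il1f10 had at most 4 counts over a group.

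On chromosome 1, Il18r1, a chain of the interleukin 18 receptor, went from 0.507 ± 0.0731 CPM in Vector to 3.73 ± 0.00624 CPM in DNTCF4 (log2 change 2.88, SE 0.17). Il1rl1 just upstream of it was lower in DNTCF4. Il18rap, the accessory chain of the interleukin 18 receptor, was higher by 0.36 on the log2 scale. Il1rl2, the receptor of Il1f6 and Il1f9, was higher by 0.56, from 11.5 to 17 CPM. As above, no p-value is given for this comparison. With EZH2, Il18rap fell by 0.36 from DNTCF4 (adjusted p 0.0105). With SET, Il18r1 rose by 0.37 (adjusted p 0.0261) and Il1rl2 fell by 0.24 (adjusted p 0.0354). Il18r1 and Il18rap were both lower with EZH2 than with SET, by 1.5-fold and 1.38-fold (adjusted p 0.00793 and 0.00916). Il1r2, the decoy receptor that opens the cluster, was at 0.161 to 0.225 CPM on average in each group, too few counts for a test.

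**Figure D4:**
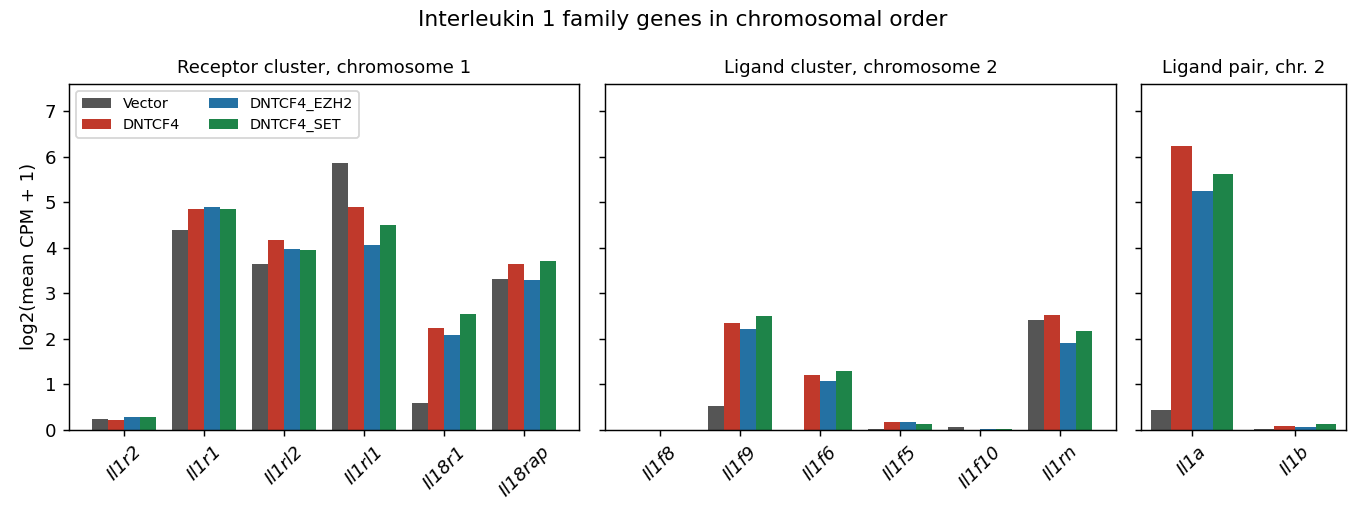
Group means of interleukin 1 family genes on the log2(mean CPM + 1) scale (y axis, bars from 0), with genes in chromosomal order along the x axis in 3 clusters and 1 bar for each of the 4 groups (n = 3 libraries each). In the receptor cluster Il1rl1 is highest in Vector and its neighbour Il18r1 lowest there, and in the ligand clusters Il1a, Il1f6 and Il1f9 have near-empty Vector bars beside a flat Il1b and Il1f8.

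Of the 6 tested genes among the other receptors and binding proteins, 4 were called higher in DNTCF4 against Vector (Il18r1, Il1rl2, Il18rap and Sigirr) and 1 lower. That is 83.3% against 57.5% of all genes. The family was noticed in that comparison, so the count is a description. The 1 that fell was Il1rapl1, a family member best known from synapses, with 28, 75 and 28 counts in Vector and 0 in each DNTCF4 library, at least 47.9-fold lower by the floor of 3 counts over the DNTCF4 group. It had 3 to 4 counts per library with EZH2 and 4 to 10 with SET, and it passed the filter on low counts through the Vector group. Its highest library, Vector replicate 2, is also the one with the most sensory receptor genes with a count, 774, and the groups rank alike in both. The part of any scattered reads in the Il1rapl1 values was not tested. Il18bp, the binding protein of interleukin 18, did not pass in that comparison, at 2.49 CPM in Vector and 2.48 CPM in DNTCF4.

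Downstream genes were taken from 6 lists of the pathway, the other receptors and the other ligands among them. The lists hold 96 genes in the table, 84 of them tested. The lists were chosen with earlier results of these data known, and many of their genes respond to other stimuli too. Their shares and adjusted p-values in DNTCF4 against Vector are therefore descriptions. The DNTCF4 libraries also enter the comparisons of EZH2 and SET with DNTCF4. In DNTCF4 against Vector 64 of the 84 were called, 52 higher and 12 lower, or 76.2% against 57.5% of all genes. In DNTCF4_EZH2 against DNTCF4 35 were called, 8 higher and 27 lower, or 41.7% against 25.5%. In DNTCF4_SET against DNTCF4 24 were called, 7 higher and 17 lower, or 28.6% against 26%, which is near the background. Without DNTCF4 replicate 1 that count was 40, where 30.9% of all genes were called.

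Of the 18 receptor-proximal genes, 8 rose and 4 fell in DNTCF4 against Vector, 66.7% against 57.5% of all genes, with a median log2 change of 0.08. Peli2, a ubiquitin ligase of the IRAK complex, rose 12.8-fold from 0.522 to 6.65 CPM (adjusted p 3.13e-11). Map3k8, a kinase downstream of the receptor complex, rose 2.09-fold to 12.2 CPM (adjusted p 8.06e-08). Irak3, which dampens the signal, rose 1.46-fold and Traf6 1.47-fold (adjusted p 7.21e-07 and 2.39e-06). Irak4, the first kinase of the complex, was among the 4 that fell, with Irak1, Ecsit and Ube2v1. Myd88 did not pass. With EZH2 2 rose (Irak4 and Peli2) and 1 fell (Peli1), and with SET 1 rose (Peli2). These are 16.7% and 5.56% of the 18, below the 25.5% and 26% of all genes.

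Of the 15 genes of IKK and NF-kappaB, 10 rose and none fell in DNTCF4 against Vector, 66.7% against 57.5% of all genes. Nfkbiz, an atypical inhibitor-like cofactor of NF-kappaB, rose 3.50-fold from 59.2 to 207 CPM (adjusted p 2.73e-15). Tnfaip3 and Nfkbia, both feedback inhibitors that NF-kappaB induces, each rose 2.12-fold (adjusted p 8.27e-12 and 1.37e-11), and Nfkb1, a subunit, 1.57-fold (adjusted p 7.24e-10). With EZH2 5 of the 15 fell (these 4 and Tnip1) and none rose, led by Nfkbiz at 1.22-fold, Tnfaip3 at 1.23-fold and Nfkb1 at 1.2-fold (adjusted p 1.4e-05, 5.24e-05 and 7.68e-05). With SET 2 fell, Nfkbiz and Nfkb1. The shares called were 33.3% with EZH2 and 13.3% with SET, against 25.5% and 26% of all genes. Rela, the subunit that most often carries the signal, did not pass in DNTCF4 against Vector.

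The 16 tested genes of ligand processing and release moved both ways, 5 higher and 4 lower in DNTCF4 against Vector, with a median log2 change of 0.01. The share called, 56.2%, is near the 57.5% of all genes, and so is the 25% called with EZH2 against DNTCF4, where 25.5% of all genes were. Nlrp3, the sensor of an inflammasome, rose 3.08-fold from 6.71 to 20.7 CPM (adjusted p 1.95e-11). Casp1, which cuts the precursors of interleukin 1 beta and interleukin 18, was among the 5 that rose, with a log2 change of 0.21, as were Casp4 and Capn2. Capns1, the small subunit of the calpains that cut interleukin 1 alpha, fell 1.35-fold, and Ninj1, a protein of membrane rupture, 1.44-fold (adjusted p 5.74e-07 and 1.75e-06), and the others that fell were Casp8 and Aim2. With EZH2 Nlrp3, Cast and Casp8 fell and Ninj1 rose. With SET Cast and Casp8 fell and Ninj1 rose. Nlrp3 was lower with EZH2 than with SET (log2 change -0.30, adjusted p 0.00873).

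Of 28 genes known to respond to interleukin 1, 24 rose and 3 fell in DNTCF4 against Vector, 96.4% against 57.5% of all genes. Their median log2 change was 2.01 where that of all genes was 0.01. This list too was chosen with earlier results known, so its share and adjusted p-values here are descriptions. Csf3, the granulocyte growth factor, rose 104-fold from 2.41 to 252 CPM (adjusted p 6.68e-19) and the neutrophil chemokine Cxcl2 52.5-fold from 8.90 to 468 CPM (adjusted p 3.35e-18). Lcn2, an iron-trapping protein, rose 29.9-fold and Saa3, an acute phase protein, 14.1-fold (adjusted p 3.35e-18 and 1.1e-15). The 3 that fell were Il11, Dusp1 and Birc3.

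With EZH2, 17 of the 28 fell and 4 rose against DNTCF4, 75% against 25.5% of all genes. The DNTCF4 libraries here are also those of the comparison with Vector. A list chosen with high DNTCF4 levels known can favour falls from DNTCF4, so the counts with EZH2 and SET are not independent of that choice. Cxcl2 fell 1.86-fold to 252 CPM (adjusted p 1.54e-09), Lif 1.43-fold, Csf3 1.47-fold and Cxcl3 1.49-fold. The 4 that rose were Saa3, Steap4, Ccl20 and Icam1. With SET 12 fell and 3 rose, 53.6% against 26% of all genes, with Cxcl2 down 1.52-fold (adjusted p 1.64e-07) and Saa3 up 1.74-fold (adjusted p 9.22e-08). Between EZH2 and SET 16 of the 84 pathway genes were called, 14 of them lower with EZH2, or 19.0% against 5.16% of all genes. Il6 was lower with EZH2 by 1.63-fold (adjusted p 0.000222), Csf3 by 1.23-fold and Cxcl2 by 1.22-fold. The count of 16 was 8 to 11 without any 1 of the 6 libraries compared, where 2.29% to 2.81% of all genes were called. It was 27 when those 6 libraries were fitted alone, where 15% of all genes were.

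**Figure D5:**
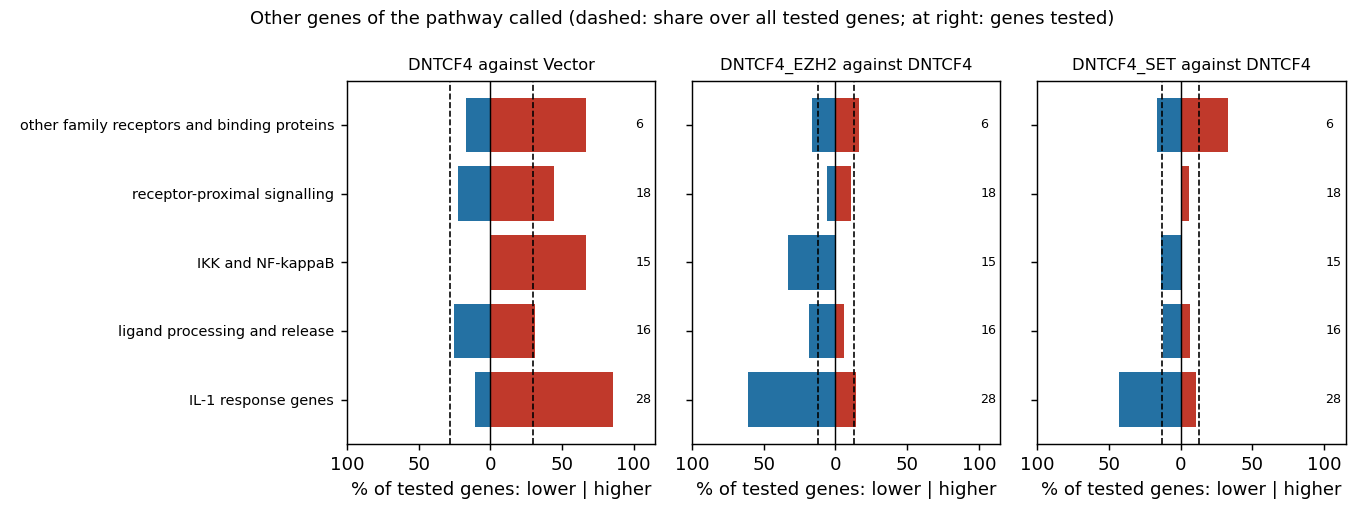
Share of the tested genes of 5 pathway lists that were called higher (red, to the right) or lower (blue, to the left) in 3 comparisons (x axis, percent of tested genes). The number at the right of each bar is the number of genes tested, and dashed lines mark the share over all 15052 genes. Of the IL-1 response genes 24 of 28 were higher in DNTCF4 against Vector, and 17 were lower with EZH2 against DNTCF4. The lists were chosen with earlier results of these data known, and the 3 comparisons share the DNTCF4 libraries.

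Macrophages and other myeloid cells are a common source of interleukin 1, so their markers were read beside these results. Per library, the list of 15 summed to 72.5 to 77.3 CPM in Vector and 104 to 128 CPM in DNTCF4. With EZH2 it summed to 116 to 126 CPM, and with SET to 116 to 122 CPM. In each group 4 of the 15 were above 1 CPM: Cd68, Csf1r, Cd14 and S100a8. S100a8 went from 11.0 CPM in Vector to 48.7 CPM in DNTCF4, while its partner S100a9 was at 0.123 CPM there. The defining markers Tyrobp, Fcer1g, Adgre1 and Itgam had at most 6 counts in a library, Tyrobp none in any. Ptprc, the common leukocyte antigen, averaged 0.397 CPM in Vector, 0 in DNTCF4, 0.0206 with EZH2 and 0.0602 with SET. The groups rank alike in sensory receptor genes with a count, and the part of any scattered reads in the Ptprc values was not tested. In RNA from whole cultures, fewer cells that express a gene and less RNA per cell cannot be told apart.

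The genes most like Il1a across the 12 libraries, by Pearson's r in log2 CPM among 11709 genes, were Cxcl2 (0.997), Plscr1 (0.997), Ccl2 (0.996), Fam160b1 (0.996) and Fth1 (0.995). The 12 libraries fall into 4 groups, so such values share the gap between Vector and the other groups. Cxcl2 shared the steps of Il1a among the other groups as well, at 468, 252 and 307 CPM in DNTCF4, DNTCF4_EZH2 and DNTCF4_SET, whereas Fth1, the ferritin heavy chain, stood at 31552, 29176 and 31097 CPM. The genes most like Il33 were Pias1 (0.965), Kntc1 (0.94), Dram1 (0.939), Fbxo5 (0.939) and Kif15 (0.936). Both lists are descriptions over libraries that share their groups.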

How the data were processed

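RNA-seq of 12 libraries was used, 3 in each of 4 groups, with groups and replicate numbers taken from the sample titles. The authors deposited expected counts, estimated reads per gene without normalisation, for 55492 features. They also deposited regularised log2 (rlog) values for 21754 genes. Per the submitters' processing notes, the tools were STAR 2.7.8a, RSEM 1.3.3, DESeq2, cutadapt 2.3 and FastQC 0.11.8, with the GRCm38 build. The sources used here do not give the strand setting. RSEM shares reads that map to several genes. The expected counts were already whole.

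Low genes were removed with filterByExpr at a count of 10 and a total of 15, leaving 15052. All 12 libraries entered 1 quasi-likelihood fit in edgeR 4.0.16 (R 4.3.3) after TMM scaling, with a mean per group and 8 residual degrees of freedom. Tests were two-sided with Benjamini-Hochberg adjustment over all genes tested and a threshold of 0.05. SEs are the log2 change over the square root of F. Levels are CPM on TMM-scaled library sizes, per kilobase of GENCODE exon where genes are compared. Folds against a group with 0 counts are bounds from 3 counts over the group. Likeness used genes of at least 1 CPM on average and log2 CPM with a prior count of 2.

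The genes and lists were chosen with earlier results of these data known. Named genes are the 9 members, up to 4 called genes with the smallest p of each list and comparison, the 5 genes most like Il1a and Il33, and Tcf7l2 and Ezh2. Other genes named to complete a short count, and the markers named by level, were chosen after their values were seen. 1 gene that the rule names is not reported here. Alternatives were DESeq2 1.42.0 (size factors and Wald test), limma 3.58.1 on rlog values, no filter, a replicate block, the 6 libraries alone and each library left out. No pair of replicates agreed within sampling noise, so each counted once. The fit was tested on simulated data.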

Additional observations from a re-analysis of the deposited data

Results flagged for a closer look

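The change from DNTCF4 differed between the constructs EZH2 and SET for 2 of the 8 tested genes, by the direct test of DNTCF4_EZH2 against DNTCF4_SET in edgeR. Il1a differed by -0.384166 on the log2 scale (adjusted p 0.00356), with the 3 DNTCF4_EZH2 libraries at 35.1 to 39.5 CPM and the 3 DNTCF4_SET libraries at 46.7 to 49.2 CPM. Il1rl1 differed by -0.466434 (adjusted p 0.00163), with 14.7 to 16.4 CPM against 21.4 to 21.7 CPM. Both differences passed under each of 13 alternatives, with adjusted p up to 0.0258 for Il1a and 0.0125 for Il1rl1. The level of Ezh2 itself was 450 CPM in DNTCF4_EZH2 and 545 CPM in DNTCF4_SET, and its part in the difference was not tested.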

How the results depend on the processing

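Among tested genes, 284 values under alternative settings kept their direction and their side of the threshold, and 6 newly passed it, which were the calls of Il33 with EZH2 and Il1rn with SET given above. The other 13 crossed 0 with no call on either side: Il1r1 with SET (-0.033687 to 0.065402 with a library left out), Il18 with SET (-0.076692 to 0.296942 with a library left out) and Il1rap between EZH2 and SET, at -0.0105023 with DESeq2 size factors, -0.0105568 with the DESeq2 Wald test, -0.00718487 with limma on rlog values, -0.00374556 with the 6 libraries alone, -0.034335 without Vector replicate 2 and DNTCF4_SET replicate 2, and -0.0199114 to 0.0352673 with a library left out. The calls for Il1a, Il1rap and Il1rl1 against DNTCF4 passed under every alternative run, with log2 changes with EZH2 from -1.06 to -0.68 for Il1a, 0.15 to 0.29 for Il1rap and -0.95 to -0.50 for Il1rl1. With a library left out, 4 to 5 of the family genes were called with EZH2, 3 to 4 with SET and 2 to 2 between EZH2 and SET. The pathway genes called were then 63 to 67 against Vector, 28 to 41 with EZH2, 20 to 40 with SET (40 without DNTCF4 replicate 1) and 8 to 11 between EZH2 and SET. The last count was 27 with the 6 libraries alone, and 8 without Vector replicate 2 and DNTCF4_SET replicate 2, an alternative chosen after seeing the data; the cause was not tested. In descriptions against Vector, Il1rn reversed to -0.007485 without DNTCF4 replicate 2 and was 0.253072 without Vector replicate 2, and limma on the shrunken rlog values gave 2.79 for Il1a, 0.28 for Il1f6 and -0.21 for Il18. Same-numbered libraries were not paired (r from -0.0906 to 0.151), and a replicate block gave 4, 3 and 2 family genes and 65, 35, 26 and 12 pathway genes. Depth limits Il1b, which has at most 5 counts in a library, and Il1f6 and Il18, whose intervals are wide.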
